A study of Mus musculus with 617 samples.

Results

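The genes described here are 8 regulators of the mouse trophoblast, the lineage that forms the placenta: Cdx2, Elf5, Gata2, Gata3, Tfap2c, Tead4, Ets2 and Wnt7b. The rule lists them by name and uses no threshold on a measured value, but the set was drawn up with earlier results of these data known. All 8 were found among the 43628 genes of each deposited table. In the early embryo the outer cells become trophectoderm and the inner cells become epiblast and primitive endoderm. TEAD4, a DNA-binding factor that works with the Hippo-regulated coactivators YAP1 and WWTR1, acts upstream of Cdx2 and Gata3 in the outer cells. After implantation the extraembryonic ectoderm, a derivative of the trophectoderm that lies next to the epiblast, keeps Cdx2, Elf5, Tfap2c and Ets2. Several of these genes also work elsewhere: Gata2 and Gata3 in spinal interneurons and blood, Cdx2 in the posterior embryo, Tfap2c in germ cells and naive pluripotent cells.

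The study measured RNA in 617 single cells from 13 groups with SMART-seq2, a full-length single-cell method, to follow male and female embryonic stem cell lines through development. All cultured and blastocyst cells came from a cross of a CAST/EiJ male with a C57BL/6J female, and the E5.5 cells from C57BL/6J parents. The labels name no mutation, no transgene and no age other than the embryonic day, which follows the letter E. Embryonic stem cells of 1 female and 1 male line were grown with LIF in 2i (60 female and 51 male cells) or in serum (68 and 52 cells). Epi cells, the study's epiblast stem cells, were made from both lines with Activin A and FGF2 (79 and 63 cells), and a separate female Epi culture was sampled after 7 passages (41 cells). Motor neuron cultures were made from both lines through embryoid bodies with retinoic acid and the smoothened agonist SAG (39 and 35 cells), and the labels say that several kinds of interneuron arise there too. Embryo cells were labelled inner cell mass at E3.5 (23 cells) and epiblast at E4.5 (23 cells), with no sex given. Cells labelled epiblast at E5.5 came as 20 female and 63 male cells. The labels do not say how many embryos were pooled or which cells came from one embryo. A female and a male line therefore stand as the only 2 replicates of each culture state, and line and sex are the same factor.

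Values are FPKM, fragments per kilobase of transcript scaled to the library's size, which divide by gene length and so allow levels of different genes to be set side by side. Fragment counts per cell were not used here, so depth is described by how many genes reached 1 FPKM, with group medians between 8122 and 10839.5. Among E3.5 cells, 1 had an FPKM sum of 7897577.5 with 4662 genes and another had 3923 genes, against a median sum of 612767.5 at that stage. No pair of cells within a group correlated above 0.938 (Pearson r), so no 2 cells had the same values. A cell is said to hold a gene when the gene is at 1 FPKM or more, and intervals on shares of cells are exact (Clopper-Pearson) at 95%, which covers the sampling of cells only. A value listed at 0 can be missed capture, since a single cell gives little RNA.

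In GENCODE vM21 (GRCm38, the same assembly as the mm10 named in the submitters' processing notes) all 8 are protein-coding genes. Cdx2 lies at chr5:147300805-147307270 and Elf5 at chr2:103411688-103450989. Gata3 (chr2:9857078-9890034) and Tfap2c (chr2:172549593-172558622) share that chromosome. Gata2 lies at chr6:88193891-88207032, Tead4 at chr6:128224288-128300823, Ets2 at chr16:95702075-95721051 and Wnt7b at chr15:85535437-85582473. Exons of the antisense gene Gm13256 and of 9230102O04Rik overlap exons of Gata3, and exons of the antisense gene AU022754 overlap those of Wnt7b. The strand of the libraries is not given in the sources used here, so fragments of these overlapping exons cannot be told apart.

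Promoter sequences are shown for Cdx2, Gata3, Elf5 and Gata2, 4 of the 5 genes whose levels went together in blastocyst cells, with 1 window each. The windows come from RefSeq (GRCm38.p6), are 220 bases long and end 31 bases before the transcription start. They lie at chr5:147307280-147307499 (minus strand), chr2:9878631-9878850 (minus strand), chr2:103423818-103424037 (plus strand) and chr6:88193641-88193860 (plus strand), in the order printed. Capitals mark matches on either strand to 3 motifs: GGAATG for TEAD factors, GCCNNNGGC for AP-2 factors such as TFAP2C, and GATAA for GATA factors. No 2 matches overlap.
Cdx2: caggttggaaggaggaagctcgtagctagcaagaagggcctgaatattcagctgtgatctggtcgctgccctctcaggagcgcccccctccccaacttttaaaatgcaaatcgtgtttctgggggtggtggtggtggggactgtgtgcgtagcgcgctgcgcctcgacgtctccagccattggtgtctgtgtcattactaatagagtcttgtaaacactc
Gata3: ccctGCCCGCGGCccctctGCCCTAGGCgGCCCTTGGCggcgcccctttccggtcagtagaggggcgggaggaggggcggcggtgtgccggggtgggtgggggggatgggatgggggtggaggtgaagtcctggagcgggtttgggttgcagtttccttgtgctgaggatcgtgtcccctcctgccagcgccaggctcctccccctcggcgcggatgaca
Elf5: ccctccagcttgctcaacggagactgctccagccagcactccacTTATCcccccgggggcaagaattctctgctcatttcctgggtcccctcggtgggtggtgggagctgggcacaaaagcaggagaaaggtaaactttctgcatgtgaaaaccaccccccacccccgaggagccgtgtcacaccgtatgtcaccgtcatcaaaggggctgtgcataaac
Gata2: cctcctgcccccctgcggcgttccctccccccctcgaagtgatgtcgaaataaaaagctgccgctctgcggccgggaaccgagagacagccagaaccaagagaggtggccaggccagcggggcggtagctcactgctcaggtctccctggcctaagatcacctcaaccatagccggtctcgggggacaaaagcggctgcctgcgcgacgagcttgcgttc
The Gata3 and Elf5 windows lie inside the annotated genes, before internal starts, and the Gata3 window overlaps an exon of Gm13256. The Gata3 window held 3 AP-2 matches, GCCCGCGGC, GCCCTAGGC and GCCCTTGGC, at positions -246 to -213 from the start. At least 1 AP-2 match was present in 11.9% of 32851 windows of that length, and 3 or more in 0.201% of them. Of the 7 windows of members 2 held one, this one and the other window of Gata2, with 1 match (GCCCACGGC). The Elf5 window held 1 GATA match, TTATC, which 20.6% of windows hold. The Cdx2 and Gata2 windows held none of the 3 motifs in these 220 bases. TEAD matches occurred in 11.4% of windows and in 2 of the 7 windows of members, the other windows of Elf5 and Gata2. The table gave windows for 5 of the 8 genes. The Gata3 window is 71.8% GC and that of Cdx2 54.5%, against a median of 51.8% over all windows.

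**Figure D1:**
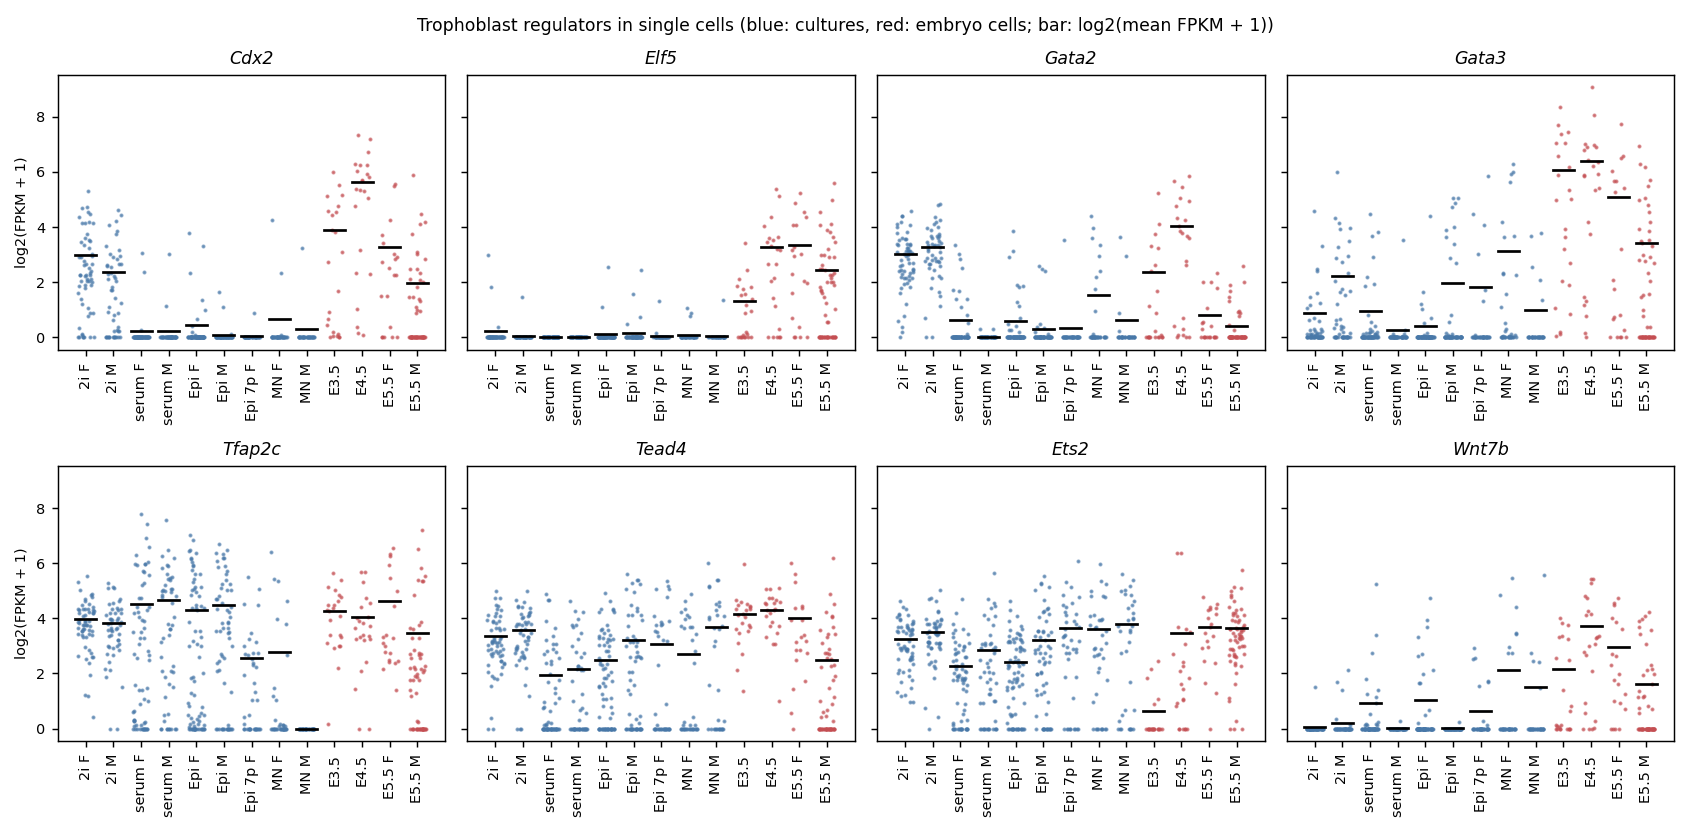
Level of each of the 8 genes in every cell, as log2(FPKM + 1), by group of cells (F female, M male, 7p 7 passages, MN motor neuron culture). Points are cells, blue for cultures and red for embryo cells, and each bar is the log2 of the group's mean FPKM plus 1. Elf5 sits at or near 0 in all cultures and spreads upward in embryo cells, while Ets2 is spread through all groups and is lowest at E3.5.

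The 8 genes fell into different patterns across the groups. Elf5 was largely an embryo gene. Wnt7b was held by a larger share of cells in every embryo group than in any culture. Its mean in female motor neuron cells (3.32 FPKM) still lay above that in male E5.5 cells (2.05 FPKM). Cdx2 and Gata2 were held by most 2i and most E4.5 cells, and Gata3 was highest in the blastocyst. Tfap2c, Tead4 and Ets2 were held widely in cultures and embryos. Tables were normalised separately by the authors, so levels set across cultures, blastocyst and E5.5 cells include any difference in processing between the tables.

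Cdx2 encodes a caudal-type homeobox factor needed for the trophectoderm. It was highest at E4.5, where the 23 cells ran from 0.0501 FPKM over a median of 40.3 to 163.2 FPKM, and 20 cells (86.96%, interval 66.4 to 97.2%) held it. At E3.5 the lowest, median and highest cells were at 0, 5.73 and 62.8 FPKM, and 13 of 23 cells held it. The ranges of both stages overlap widely. Both 2i cultures held Cdx2 as well, with means of 6.82 FPKM in the female line (47 of 60 cells, 78.3%) and 4.12 FPKM in the male line (29 of 51 cells, 56.9%), and their highest cells reached 38.4 and 23.6 FPKM. In E5.5 cells the means were 8.59 FPKM (female, 14 of 20 cells) and 2.91 FPKM (male, 20 of 63 cells), below the E4.5 mean of 48.6 FPKM. In serum, Epi and motor neuron cultures it was held by 0 to 5.1% of cells. There a single cell carried from 62.2% to all of the summed Cdx2 in 6 of the 7 cultures, the first female Epi culture being the exception.

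Elf5 encodes an ETS-family factor that keeps trophoblast stem cells in their fate. All 120 serum cells were listed at 0, and in the other cultures 1 or 2 cells per culture held it, with means up to 0.161 FPKM. Elf5 was held by 10 of 23 cells at E3.5 (0, 0.842 and 9.66 FPKM as lowest, median and highest) and by 17 of 23 at E4.5 (0, 5.39 and 40.6 FPKM). At E5.5 the female cells ran from 0 over 5.29 to 36.7 FPKM and the male cells from 0 over 1.37 to 47.2 FPKM, with 14 of 20 and 33 of 63 cells holding it. By share of cells the cultures (at most 3.3%) and the embryo groups (43.5 to 73.9%) did not overlap for Elf5.

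Gata2 and Gata3 encode zinc-finger factors of the GATA family. Gata2 was held by 91.7% of female and 94.1% of male 2i cells, with means of 7.20 and 8.75 FPKM, more than any other group by share. Its blastocyst means were 4.22 FPKM at E3.5 (9 of 23 cells) and 15.3 FPKM at E4.5 (15 of 23 cells). In E5.5 cells it was low, with means of 0.754 and 0.319 FPKM and 5 of 20 and 6 of 63 cells holding it. The other 4 of Cdx2, Elf5, Gata2, Gata3 and Wnt7b were each held by at least 11 female and 18 male E5.5 cells. Gata3 was at 66.1 FPKM on average at E3.5 (0.0224, 30.9 and 331 as lowest, median and highest) and at 84.4 FPKM at E4.5 (0, 58.1 and 542). Gata3 at E5.5 ran to 212 FPKM in female and 120.8 FPKM in male cells, with medians of 2.80 and 0. In cultures Gata3 was held by a minority of cells everywhere, from 1 of 52 male serum cells to 17 of 51 male 2i cells. The female motor neuron culture had a Gata3 mean of 7.82 FPKM, with 12 of 39 cells holding it and 78.1 FPKM in the highest cell.

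Tfap2c encodes the AP-2 gamma factor and Tead4 the TEAD factor named above. Tfap2c was held by 98.3% and 96.1% of 2i cells at similar levels, with medians of 12.9 and 11.6 FPKM. In serum its means were higher (22.1 and 24.3 FPKM) while fewer cells held it (61.8% and 76.9%), and the highest cells reached 220 and 189.5 FPKM. The standard deviation over cells was 8.71 and 8.73 FPKM in 2i and 40.1 and 32.8 FPKM in serum. It was listed at 0 in all 35 male motor neuron cells. In the embryo Tfap2c averaged 18.5 FPKM at E3.5, 15.4 FPKM at E4.5, and 23.96 and 10.1 FPKM in female and male E5.5 cells. All 20 female E5.5 cells held it, against 37 of 63 male cells. Tead4 was held by all 23 cells at E3.5 (mean 16.8 FPKM) and 22 of 23 at E4.5 (18.6 FPKM). At E5.5 it averaged 15.1 FPKM in female cells (18 of 20 held it) and 4.58 FPKM in male cells (26 of 63). Both 2i cultures had means of 9.33 and 10.8 FPKM, and 57 of 60 and 48 of 51 cells held it. The serum means were 2.83 and 3.505 FPKM.

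Ets2, an ETS factor that acts downstream of FGF and ERK signalling in trophoblast stem cells, had its lowest level at E3.5. There 4 of 23 cells held it, 18 were listed at 0 and the highest was at 4.48 FPKM. At E4.5 its mean was 10.1 FPKM with a median of 2.04, because 2 cells of title number 10 stood at 81.9 and 82.03 FPKM and the next was at 12.0. In both E5.5 groups more than 92% of cells held it, with means of 11.8 and 11.5 FPKM. Wnt7b encodes a secreted WNT ligand. It averaged 3.49 FPKM at E3.5 (9 of 23 cells), 12.4 FPKM at E4.5 (16 of 23 cells), and 6.74 and 2.05 FPKM in female and male E5.5 cells. In 2i, male serum and male Epi cultures its means were at most 0.149 FPKM. The 3 female serum, Epi and 7-passage Epi cultures had 0.888, 1.05 and 0.562 FPKM, and the motor neuron cultures 3.32 and 1.81 FPKM. One cell carried 74.3% of the summed Wnt7b of the male motor neuron culture.

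**Figure D2:**
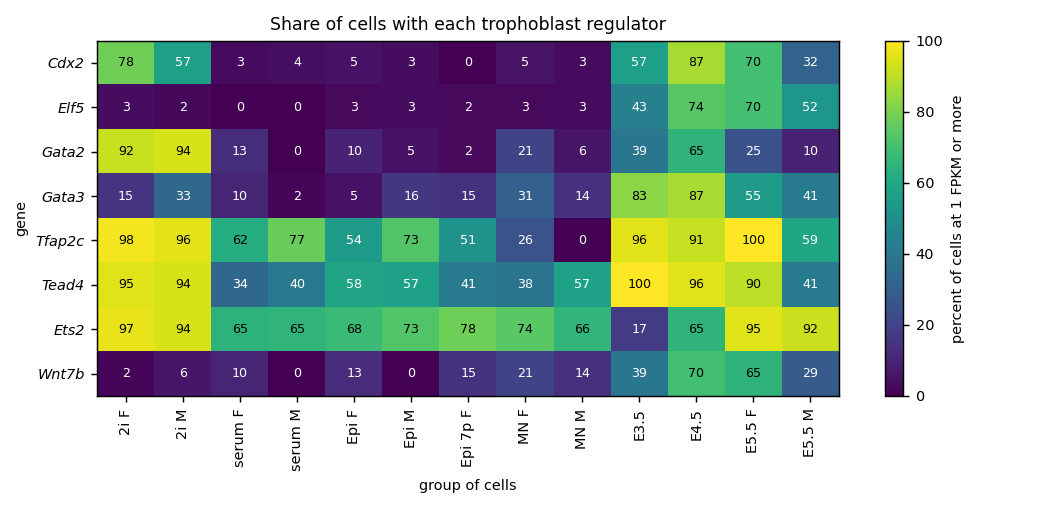
Percent of cells at 1 FPKM or more for each of the 8 genes (rows) in each of the 13 groups (columns), printed in each square and coloured from 0 to 100. All 8 genes are held by most E4.5 cells, while Cdx2, Elf5 and Wnt7b are held by at most 20.5% of cells in serum, Epi and motor neuron cultures.

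Many embryo cells held several of these genes at once. Of the 23 cells at E4.5, 17 (73.9%, interval 51.6 to 89.8%) held 3 or more of Cdx2, Elf5, Gata2, Gata3 and Wnt7b, and 12 held all 5. At E3.5 the counts were 11 (47.8%, 26.8 to 69.4%) and 6 of 23 cells. At E5.5, 13 of 20 female cells (interval 40.8 to 84.6%) and 17 of 63 male cells (16.6 to 39.7%) held 3 or more, and 3 and 2 cells held all 5. In 2i, 12 of 60 female and 13 of 51 male cells held 3 or more and none held all 5. Serum, Epi and motor neuron cultures had 0 to 2 such cells each. At E4.5, where each gene was held by most cells, some pairs lay close to the product of their shares: Cdx2 and Elf5 were held together by 15 cells (product 14.8) and Cdx2 and Gata2 by 14 (13.04). At E3.5 Cdx2 and Gata2 were held together by 9 cells (product 5.09), and at E5.5 Cdx2 and Elf5 by 13 female (9.8) and 17 male cells (10.5).

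The cells labelled inner cell mass and epiblast thus often held trophectoderm genes, and this goes against the labels. Krt8 and Krt18 encode the simple-epithelium keratins of the trophectoderm. Krt18 was at 1 FPKM or more in all 23 cells at E3.5 and 22 of 23 at E4.5, with means of 219 and 864 FPKM, and the 12 cells at E4.5 with all 5 genes had 616 to 2556 FPKM. Eomes, a T-box factor shared by trophoblast and early mesendoderm, was held by 13 and 18 cells. Of 14 other trophectoderm and extraembryonic ectoderm genes, 10 averaged at least 1 FPKM at E3.5 and 11 at E4.5, and their summed level per cell had medians of 381 and 1430 FPKM. Each culture also had 10 to 12 of these genes at that mean, so this count did not set the blastocyst cells apart. The summed medians were 380.8 FPKM in 7-passage Epi cells and 1037 and 827 FPKM in female and male motor neuron cells. Only the E4.5 median lay above those of all cultures. Pou5f1, the pluripotency factor of the inner cells, was at 1 FPKM or more in all 46 cells, with 107.5 to 655 FPKM at E3.5 and 16.7 to 687 FPKM at E4.5. Of 8 genes of differentiated trophoblast, 6 at E3.5 and 4 at E4.5 were listed at 0 in every cell and none averaged 1 FPKM. The blastocyst cells are therefore called by their stage below, and no cell is given another name.

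Across blastocyst cells the levels of the 5 genes counted above (Cdx2, Elf5, Gata2, Gata3 and Wnt7b) went together, and those of Tfap2c and Tead4 did not follow them. Ets2 was held together with Cdx2 by 3 cells at E3.5 (product of shares 2.26) and 15 at E4.5 (13.04), and its r is not given here. The Pearson r of log2(FPKM + 1) over the 46 cells was 0.83 between Cdx2 and Gata3, 0.80 between Cdx2 and Wnt7b, 0.78 between Cdx2 and Gata2 and 0.55 between Cdx2 and Elf5. Cdx2 went with Krt18 at 0.90 and against Pou5f1 at -0.60 and Nanog at -0.62. Within the stages, r between Cdx2 and Gata3 was 0.90 at E3.5 and 0.83 at E4.5. Cdx2 against Tfap2c gave 0.24, Cdx2 against Tead4 0.31, and Cdx2 against genes detected per cell 0.25. These cells share libraries and 2 stages, so the coefficients describe the cells and carry no test. The E4.5 cell with the highest Cdx2 (163.2 FPKM) also held Gata3 at 270, Gata2 at 56.2, Wnt7b at 27.1, Tfap2c at 39.3 and Pou5f1 at 76.6 FPKM. The E4.5 cell with the highest Elf5 (40.6 FPKM) had Gata2 at 49.6, Wnt7b at 42.2, Eomes at 65.8 and Pou5f1 at 17.8 FPKM. At the other end, the E4.5 cell with the lowest Cdx2 (0.0501 FPKM) had Pou5f1 at 687 and Nanog at 288.7 FPKM and held only Gata2 of the 5, at 5.14 FPKM. An E4.5 cell with Cdx2 at 26.1 FPKM did not follow this pattern: its Elf5, Gata2, Gata3 and Wnt7b were all under 1 FPKM, its Tfap2c was at 50.8 and its Pou5f1 at 660 FPKM.

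**Figure D3:**
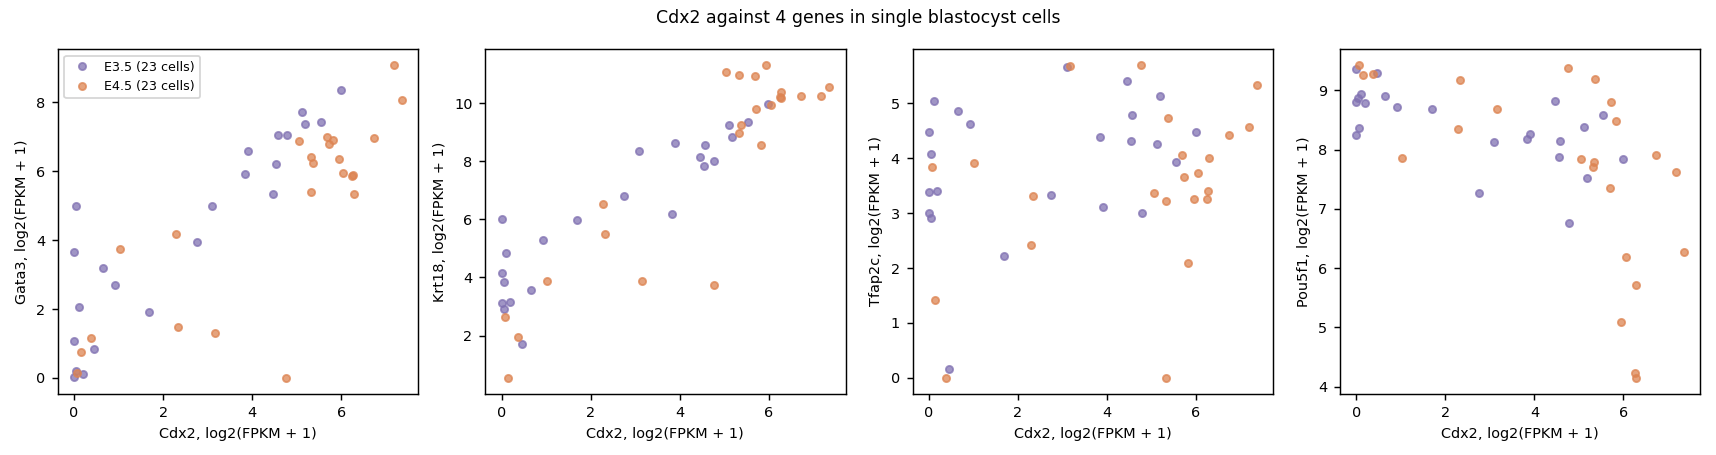
Cdx2 on the x axis against Gata3, Krt18, Tfap2c and Pou5f1 on the y axes, each as log2(FPKM + 1), in 23 cells at E3.5 and 23 at E4.5. Each point is a cell. Gata3 and Krt18 climb with Cdx2, Tfap2c does not, and Pou5f1 is lower in cells of high Cdx2 but stays above 1 FPKM in all 46.

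The titles of both stages name late blastocyst, and the cell type label separates E3.5 from E4.5. The form of the titles separates them too: those at E3.5 carry a hyphen and further numbers that those at E4.5 lack. Stage therefore cannot be told apart from whatever this form stands for. After the words late blastocyst comes a number that the labels do not explain, with 4 values among E3.5 and 7 among E4.5 cells. Cells with 3 or more of the 5 genes occurred under each of them, from 2 of 5 to 4 of 7 cells at E3.5. At E4.5 all 12 cells of the numbers 5, 7, 8 and 10 held 3 or more, against 3 of 7 cells of number 9 and 1 of 2 cells each of numbers 4 and 6. The 3 cells of number 9 with many of these genes had Pou5f1 at 16.7, 17.8 and 71.9 FPKM, while the other 4 had 580 to 687 FPKM.

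At E4.5 against E3.5, 5 of the 8 genes had a mean higher by at least 1 on the scale of log2(mean FPKM + 1), and none was lower by that much. Of the 11893 genes averaging 1 FPKM or more, 11.6% were higher and 13.4% lower by that size, with a median of -0.08. The log2 ratios were 2.85 for Ets2, 1.96 for Elf5, 1.76 for Cdx2, 1.64 for Gata2 and 1.57 for Wnt7b. Gata3, Tead4 and Tfap2c had 0.35, 0.14 and -0.25. Each stage is 1 sample, since the labels tie no cell to an embryo, so these differences have no replicate check and no test. The single cells of both stages overlapped for all 8 genes. The order of these genes depended on the scale, since Ets2 had 1.58 and Cdx2 2.03 as the difference of mean log2 values over cells, and Gata2 had 2.70 with cells rescaled to the same sum. The same 5 genes passed 1 under both. Without the E3.5 cell of the largest FPKM sum the Gata2 ratio was 2.13, and these 5 genes again passed 1. Depth and the makeup of the picked cells moved with stage: the median number of genes was 8122 at E3.5 and 8754 at E4.5, and the summed level of the 14 other trophectoderm genes differed as given above. The form of the titles also differed between the stages. The part of these in the stage difference was not tested.

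At E5.5 a different set of genes went together, with Tfap2c and Tead4 joining Cdx2, Elf5 and Wnt7b, while Gata2, held by few cells, gave low r. Gata3 and Cdx2 were held together by 14 male (product of shares 8.25) and 10 female cells (7.7). Over the 63 male cells r was 0.76 between Tfap2c and Wnt7b, 0.69 between Tfap2c and Elf5, 0.67 between Tfap2c and Cdx2, and 0.67 between Tead4 and Cdx2. Over the 20 female cells r between Tfap2c and Cdx2 was 0.76, between Tfap2c and Tead4 0.74, and between Cdx2 and Elf5 0.86. Gata2 gave 0.22 with Cdx2 in male and 0.28 in female cells. It was held by only 6 male and 5 female cells. All 5 of these female cells also held Cdx2, Elf5, Tfap2c and Tead4, and 3 of the 6 male cells held Cdx2 (product 1.90). Tfap2c went against Pou5f1 at -0.61 in male and -0.79 in female cells, and against Fgf5, a marker of the implanted epiblast, at -0.49 and -0.67. The number of genes per cell gave 0.18 and -0.06 with Tfap2c.

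Single E5.5 cells at the upper end held nearly the whole set. The male cell with the highest Cdx2 had 58.97 FPKM, with Elf5 at 47.2, Gata3 at 120.8, Tfap2c at 146.5, Tead4 at 72.9 and Wnt7b at 17.8 FPKM. Its Ets2 was the highest of all E5.5 cells at 52.7 FPKM, its Gata2 was at 0, Pou5f1 was at 147.2 and Fgf5 at 0.806 FPKM. The 4 female cells of highest Cdx2 (12.1 to 46.2 FPKM) had Elf5 between 19.7 and 36.7, Tfap2c between 59.96 and 93.4 and Pou5f1 between 97.1 and 296 FPKM, with Fgf5 between 17.7 and 37.8 FPKM. Eomes was at 1 FPKM or more in 19 of 20 female and all 63 male cells, so it did not set these cells apart. Hand1, a factor of trophoblast giant cells and extraembryonic mesoderm, was at 1 FPKM or more in 18 female and 30 male cells, and Ttr, a visceral endoderm protein, in 20 female and 62 male cells. Visceral endoderm genes were thus present alongside: the 10 primitive and visceral endoderm genes summed to medians of 2195 FPKM in female and 497 FPKM in male cells. Ttr gave r of 0.35 with Cdx2 in male and 0.24 in female cells. The part of RNA from neighbouring cells in these values was not tested.

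**Figure D4:**
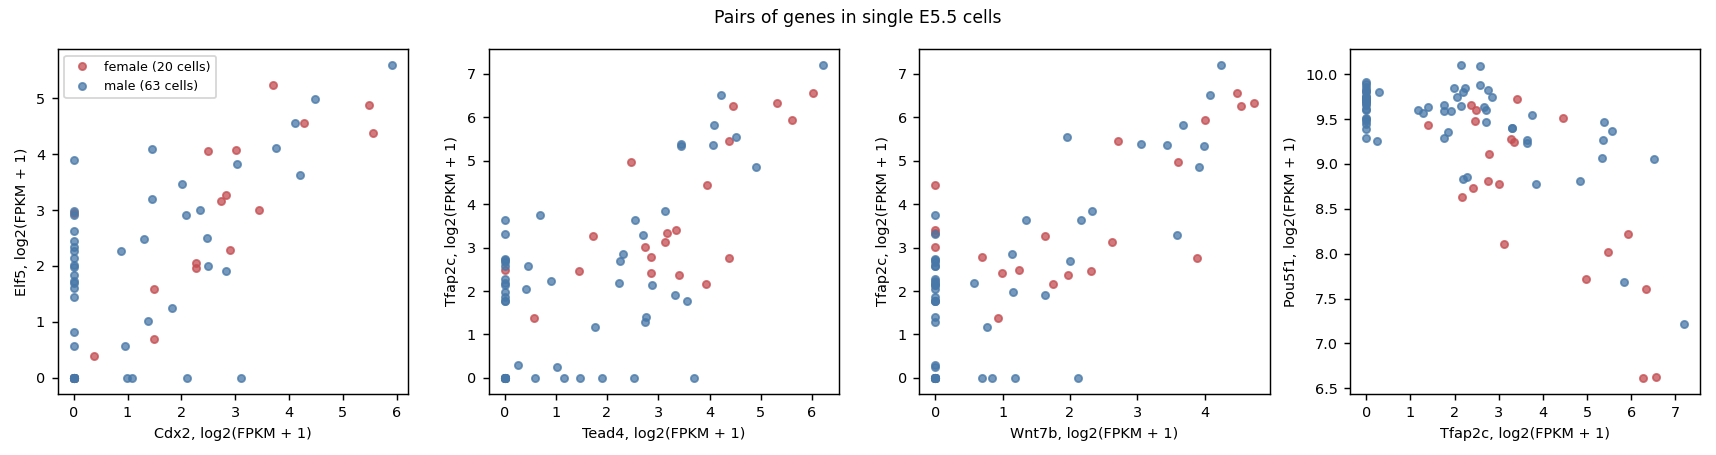
Pairs of genes in single E5.5 cells, each axis log2(FPKM + 1), with 20 female cells in red and 63 male cells in blue. Elf5 climbs with Cdx2, and Tfap2c with Tead4 and Wnt7b, while Pou5f1 is lowest in cells of high Tfap2c and above 1 FPKM in all cells.

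Female E5.5 cells had higher means than male cells for 5 genes by at least 1 on the log2 scale: Gata3 (1.67), Tead4 (1.53), Wnt7b (1.34), Cdx2 (1.29) and Tfap2c (1.17). Elf5 had 0.90, Gata2 0.41 and Ets2 0.04. With a pseudocount of 0.1 Elf5 and Gata2 also reached 1.03 each. Over 13434 genes 5.97% were higher and 4.78% lower by 1 or more, with a median of 0.02. The ranges of female and male cells overlapped for all 8 genes. No test was made, as each sex is 1 sample. The numbers in female titles all lie above those in male titles (99 or more against 96 or less), and the labels do not explain these numbers. Sex therefore cannot be told apart from whatever they stand for, nor from embryo. The sums of endoderm genes given above, and Ttr at 586 against 176.1 FPKM on average, were also higher in the female cells. So were the summed levels of the 14 other trophectoderm genes (medians 566.9 against 225.9 FPKM) and of 8 decidua genes (45.7 against 16.1 FPKM), and the part of these lists in the difference was not tested.

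Cultures of 4 states were compared in 1 limma fit over 15504 genes averaging at least 1 FPKM, with the female and male culture of each state as replicates. Calls needed a change of 1 or more in log2 size together with an adjusted p (Benjamini-Hochberg) below 0.05. Of the 8 genes 6 passed the filter on low values, Elf5 and Wnt7b did not. The labels do not say that cultures of a line were grown separately more than once, so the p-values measure the spread between 2 lines.

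**Figure D5:**
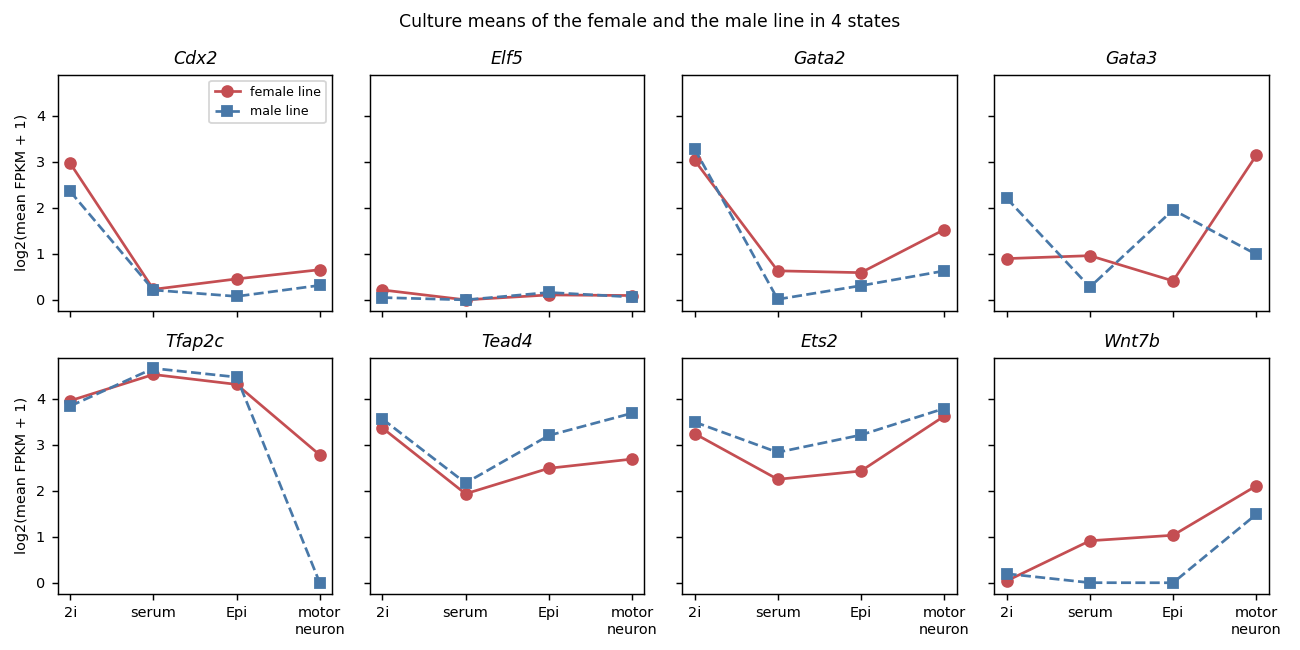
log2(mean FPKM + 1) of each gene in the female line (red circles) and the male line (blue squares) in 2i, serum, Epi and motor neuron cultures. Each point is the mean over the cells of 1 culture. Cdx2 and Gata2 are lower in serum than in 2i in both lines, and Tfap2c is lower in motor neuron than in serum cultures in both lines.

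From 2i to serum the largest differences were in Gata2 and Cdx2. Gata2 averaged 7.20 and 8.75 FPKM in the 2i cultures of the female and male line and 0.549 and 0.00839 FPKM in serum, and Cdx2 averaged 6.82 and 4.12 against 0.171 and 0.159 FPKM. The 2 cultures of each state did not overlap for either gene, and the share of all genes with such separation was not counted. The log2 differences were -2.84 (SE 0.43, limma adjusted p 0.0855) for Gata2 and -2.44 (SE 0.38, limma adjusted p 0.0895) for Cdx2, so neither passed the threshold. Tead4 had -1.41 (SE 0.43, limma adjusted p 0.311), also with separate cultures. The fit called none of the 6 genes, 3 had an unadjusted p under 0.05, and it called 0.00645% of all genes higher and 0.0129% lower. Gata2 and Cdx2 passed in 3 alternative settings, at adjusted p of 0.0374 and 0.0432 by limma when only the 4 cultures compared were fitted. In each of these settings limma also called more of all genes, higher and lower, than in the main fit. With only the 4 cultures, 3026 of 13547 genes had an unadjusted limma p below 0.05, against 1549 of 15504 in the main fit. The passing of Gata2 and Cdx2 there was thus not particular to these genes. Over cells, the share with Gata2 went from 91.7% and 94.1% to 13.2% and 0%, and that with Cdx2 from 78.3% and 56.9% to 2.9% and 3.8%. Gata3 differed between the lines: 0.862 and 3.62 FPKM in 2i, 0.946 and 0.212 FPKM in serum.

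In 2i cells Cdx2 gave low r with Gata2 and higher r with Gata3. The r between Cdx2 and Gata2 was 0.13 in female and 0.06 in male 2i cells, and between Cdx2 and Gata3 0.27 and 0.43. All 51 male and 60 female 2i cells had Pou5f1 at 432 FPKM or more, and Cdx2 gave r of 0.18 and -0.09 with it. Cdx2 and Gata2 were held together by 44 of 60 female cells, where the product of their shares gives 43.1, and by 27 of 51 male cells, where it gives 27.3. Cdx2 and Gata3 were held together by 9 female cells (product 7.05) and 14 male cells (product 9.67). Cdx1, the caudal relative of Cdx2, was at 1 FPKM or more in all 60 female and 51 male 2i cells with means of 20.03 and 30.96 FPKM, against 0.806 and 1.06 FPKM in serum. Its log2 difference was -3.75 (SE 0.50, limma adjusted p 0.0778). Cdx1 was low in embryo cells, at 0.294 FPKM at E3.5 and 1.10 FPKM at E4.5, unlike Cdx2. Eomes was held by 8 of 60 female and 20 of 51 male 2i cells.

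Between Epi and serum cultures none of the 6 genes was called by limma and none had an unadjusted p under 0.05, while 0.0322% of all genes were called higher and 0.00645% lower. The largest difference was in Tead4, at 4.63 and 8.22 FPKM in Epi against 2.83 and 3.505 FPKM in serum, a log2 difference of 0.79 (SE 0.43, limma adjusted p 0.727). Its cultures did not overlap, and the share of all genes with such separation was not counted. Tfap2c had -0.20 (SE 0.81) and Ets2 0.28 (SE 0.37). Gata3 averaged 0.330 and 2.88 FPKM in female and male Epi. The female Epi culture of 7 passages, which has no replicate, had Tfap2c at 4.92 FPKM against 18.9 in the first female Epi culture, a log2 ratio of -1.75. Its Gata3 was at 2.56 against 0.330 FPKM (1.42) and its Ets2 at 11.5 against 4.40 FPKM (1.21). One cell carried 54.1% of the summed Gata3 of that culture.

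Tfap2c was the one gene of the set that passed the test in motor neuron cultures. The female culture had 0 as lowest and median and 84.5 FPKM as highest value, with 10 of 39 cells holding it, and all 35 cells of the male culture were listed at 0. Their means of 5.87 and 0 FPKM lay below the serum means of 22.1 and 24.3 FPKM. Tfap2c fell by 3.21 on the log2 scale (SE 0.81, limma adjusted p 0.0254), against a median of 0.71 over all genes. The background was large, with 30.1% of 15504 genes called higher and 2.7% lower, or 4669 and 419 genes. After scaling cultures to 1 upper quartile the split was 2183 and 1611 genes, the median 0, and Tfap2c was at -3.65 (limma adjusted p 0.0155). The Tfap2c call was lost without either serum culture (limma adjusted p 0.109 without the female and 0.114 without the male one) and without either 2i culture (0.0556 and 0.0568). It was also lost with a pseudocount of 0.1 (0.0614, at a difference of -4.91), with no filter on low values (0.0712), in the higher run of title numbers (0.0634) and with only the 4 cultures compared (0.0728), with the same direction in each. Without the male motor neuron culture the difference was -1.82 and without the female one -4.60, and Tfap2c was called in both.

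Ets2 and Tead4 lay higher in motor neuron than in serum cultures without passing. Ets2 averaged 11.3 and 12.8 FPKM against 3.77 and 6.15 FPKM (1.16, SE 0.37, limma adjusted p 0.0508), and Tead4 5.46 and 11.9 FPKM against 2.83 and 3.505 FPKM (1.14, SE 0.43, limma adjusted p 0.0808). With the line as a replicate block both were called (adjusted p 0.0263 and 0.0391 by limma). After upper-quartile scaling their differences were 0.40 and 0.41 and neither was called, beside a median of 0 over all genes. Gata3 had 1.45 (SE 0.89, limma adjusted p 0.242), with 7.82 and 0.984 FPKM in motor neuron cultures. Cdx2 was held by 2 of 39 and 1 of 35 cells. Of 10 listed partners of Gata2 and Gata3 in spinal interneurons, 3 were tested and none was called. These were Lmo4 (2.28, SE 0.76, limma adjusted p 0.0568), Lhx1 (0.42) and Gad1 (-0.59). The summed level of the 10 genes had medians of 45.4 and 75.4 FPKM in female and male motor neuron cells. In female and male serum cells the medians were 11.7 and 12.6 FPKM. Tal1 of that list averaged 0.0606 FPKM in female motor neuron cells and was listed at 0 in all male ones.

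Other genes of the same pathways and families were set beside the 30.1% of all tested genes called higher in motor neuron than in serum cultures. Of 13 Hippo and TEAD genes all were tested and 7 were called higher, none lower, with a median of 1.88 beside 0.71 for all genes. These included the YAP targets Ccn2 (3.08, SE 0.70) and Ccn1 (3.01, SE 0.38), the angiomotin relative Amotl2 (2.56, SE 0.29) and the kinase Lats2 (2.52, SE 0.46), with limma adjusted p between 0.0032 and 0.0182. Of 12 family relatives 6 were tested and 4 called higher: Gata4 (5.48), Gata6 (3.86), Wnt7a (2.398) and Ets1 (2.08). Of 8 genes that work with WNT7 ligands 6 were tested and 2 called higher, Wls, which carries WNT proteins to the cell surface (4.09, SE 0.69), and the co-receptor gene Lrp6 (1.06, SE 0.33), a share near that of all genes. Of 14 other trophectoderm genes 13 were tested and 3 called higher: Krt8 (5.22), Krt18 (4.67) and Id2 (2.35), a share below that of all genes. After upper-quartile scaling limma called fewer genes higher, 2183 of 15504, and 1611 lower. The calls in these lists were then 3 of 13 Hippo genes (Amotl2, Ccn1 and Lats2) and 3 of 6 relatives. Wls alone of the WNT7 partners and Krt8 alone of the trophectoderm genes were also called, and no gene of these lists was called lower. In serum against 2i and in Epi against serum limma called no gene of these 4 lists, and 8 and 9 of their 13, 13, 6 and 6 tested genes had an unadjusted p below 0.05, beside 1549 and 1000 of 15504 genes.

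Genes of other cell types moved in the same contrast. All 8 neuron genes were called higher, among them Isl1 (7.22) and Snap25 (6.60), and so were 6 of 7 tested genes of primitive and visceral endoderm, led by Sox17 (7.31). Of 11 pluripotency and epiblast genes, all tested, 3 were called lower, Pou5f1 (-6.01), Nanog (-5.04) and Otx2 (-3.91). Tbx3 of that list was called higher (1.60). The summed level of the 10 endoderm genes had medians of 20.3 FPKM for female and 406 FPKM for male motor neuron cells, and that of the 8 neuron genes 140 and 1061 FPKM. In motor neuron cells Tead4 gave r of 0.63 (female) and 0.54 (male) with Gata4, and Ets2 0.44 and 0.34. Gata3 gave -0.30 and 0.19 with Gata4. The part of cells with endoderm genes in the Tead4 and Ets2 differences was not tested.

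Between the lines within a state no difference was tested, with 1 culture per arm. The differences of at least 1 on the log2 scale are listed here, and their share over all genes was not counted. Gata3 was lower in the female line in 2i (-1.31) and in Epi (-1.54) and higher in motor neuron cultures (2.15). Wnt7b was higher in the female Epi culture (1.03), and Tfap2c in the female motor neuron culture (2.78). In serum none of the 8 reached 1 in size.

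For each gene held by at least 10% of the cells of a table, the 3 genes most like it by Pearson r of log2(FPKM + 1) were taken. In the 46 blastocyst cells, among 13258 genes, Cdx2 was most like Fabp3 (0.91), Krt18 (0.90) and Dppa1 (0.88), and Gata3 most like Krt8 (0.91), Dab2 (0.90) and Id2 (0.90). Elf5 was most like Gm28959 (0.84), Wnt7b like Gm12171 (0.88) and Ets2 like Cebpb (0.81). Tfap2c and Tead4 had lower maxima, 0.65 with Got1 and 0.64 with Pih1d1. In the 83 E5.5 cells, among 15174 genes, Gsto1 was the first partner of Cdx2 (0.78), Elf5 (0.85), Tfap2c (0.84) and Wnt7b (0.84), and Esrrb that of Gata3 (0.70) and Tead4 (0.74). For Gata2 no r there was above 0.45. In the 447 cells of the 8 cultures, among 15537 genes, Gata2 was most like Srarp (0.80), Crxos (0.79) and Tnni1 (0.76), and Cdx2 like Crxos (0.66), Srarp (0.66) and Pglyrp1 (0.66). Cells of different states are pooled in these coefficients, and shared state, library and depth enter them.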

How the data were processed

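Per the labels' protocols, RNA of 617 single cells was amplified by SMART-seq2 and cut into libraries with Tn5. The authors deposited FPKM values for 43628 genes in 4 separately normalised tables. STAR 2.4.1, Cufflinks, Cuffnorm 2.2.1 and mm10 are named in the submitters' processing notes, with no parameters. FPKM divide out sequencing depth and gene length, so the fragments behind a value are not known and no counting interval was given. The exponent of 356 values was written with a low line and read as a minus sign (largest 9.7552e-05). Columns were matched to samples by title, and GENCODE vM21 gave symbols for 42462 IDs.

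Cells of a culture were averaged, and log2(mean FPKM + 1) of 8 cultures was fitted with limma 3.58.1 (R 4.3.3, trend on, mean of at least 1 FPKM), tested on simulated data. The same 2 lines run through all states, so the labels pair cultures. The correlation of female minus male differences between states was 0.0605 to 0.163 over 15504 genes. Comparisons of 1 culture or stage with another got no test. Correlations used Python 3.11.15 with pandas 2.3.3. Alternatives covered the pseudocount, filters, scaling, cells kept, block, cultures in the fit and detection at 0.1 or 5 FPKM. The genes named are the 8 members, listed genes that were called, the 3 genes most like each member, and listed genes used as markers. A few genes of these lists and comparisons are not reported here. Members and lists were chosen with earlier results of these data known.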

Additional observations from a re-analysis of the deposited data

Results flagged for a closer look

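In 6 cases the female and the male line moved in opposite ways between culture states. Each line is 1 culture per state, and the differences between lines were not tested. Values are differences of log2(mean FPKM + 1).

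Gata3 showed the widest gaps. From serum to Epi it differed by -0.55 in the female line and by 1.68 in the male line, and from 2i to serum by 0.064 in the female and -1.93 in the male line. One cell carries 78.1% of the summed Gata3 of the female Epi culture and 96.7% of that of the male serum culture. Wnt7b differed by 0.87 in the female and -0.19 in the male line from 2i to serum, where 1 cell carries 60.5% of the female serum sum. From serum to Epi Wnt7b differed by 0.12 and -0.0015. The other 2 cases were small: Cdx2 from serum to Epi (0.23 female, -0.14 male) and Gata2 from serum to Epi (-0.040 female, 0.30 male).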

How the results depend on the processing

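Among alternative values of the log2 changes, 15 passed the threshold newly, 8 no longer passed it, 13 turned sign and the rest kept both. None of those that turned was called. From serum to Epi these were Cdx2 (-0.12 in the lower run of title numbers, -0.17 with the 7-passage culture, -0.15 to 0.23 leaving out 1 culture), Ets2 (-0.19 in the higher run, -0.11 to 0.67 leaving out 1 culture), Gata2 (-0.0022 with the 7-passage culture, -0.18 to 0.44 leaving out 1 culture), Gata3 (-0.21 to 1.34 leaving out 1 culture) and Tfap2c (0.22 in the higher run). The others were Cdx2 from serum to motor neurons (-0.13 in the higher run) and Tfap2c from 2i to serum (-0.62 as mean of log2 values). Serum against 2i called 2 of the 8 genes, not 0, with the mean of log2 values, with only 4 cultures and with the 7-passage culture. Leaving out any culture left 0. Over all genes limma also called more, higher and lower, in the 3 settings with 2 calls than in the main fit. Epi against serum stayed at 0 throughout. Motor neuron against serum called 1, but 0 with pseudocount 0.1, with no filter and with only 4 cultures, 2 without cells of few genes and in the lower run, and 3 with the 7-passage culture. Leaving out 1 culture gave 0 to 2. With the line as a replicate block it called 3 genes (Tfap2c, Ets2 and Tead4), and the block changed no other call of the 8. In the higher run the 1 gene called was Wnt7b (1.71, limma adjusted p 0.0340). The calls over all genes moved too in motor neuron against serum, where the main fit called 4669 of 15504 genes higher. Limma called 4985 of 15447 higher with the 7-passage culture, 3498 of 15594 with only 4 cultures and 3747 of 33861 with no filter. The causes were not tested.

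Shares of cells holding 3 or more genes at 0.1 FPKM were 35% (female 2i), 43.1% (male 2i) and 95.7% (E4.5). At 5 FPKM they were 1.67% and 11.8% in female and male 2i, 35% and 11.1% in female and male E5.5 cells, and 0% in female serum, female Epi and both motor neuron cultures. Genes past a log2 ratio of 1 between the sexes, with the mean of log2 values, numbered 0 in 2i, Epi and motor neuron cultures. With pseudocount 0.1 there were 3 in serum and 4 in motor neuron cultures and 7, not 5, at E5.5, and with rescaled cells 1 in serum. The share of all genes past that ratio was not counted in these settings. Between the 7-passage and the first female Epi culture, both female, 1 gene passed with the mean of log2 values, Tfap2c (-1.02). With FPKM alone, a gene at 0 cannot be separated from one missed at low depth.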
